A study of Saccharomyces cerevisiae with 50 samples.

Results

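The mRNA of budding yeast lacking RPL6A was compared with that of its wild type. RPL6A (YML073C) encodes a protein of the large ribosomal subunit. The comparison was chosen by strain and assay, not by measured values, and used 6 of the 50 samples of the series: 3 libraries of Δrpl6a and 3 of the wild type. Both groups were haploid Saccharomyces cerevisiae BY4741 cells of mating type a that carry his3Δ1, leu2Δ0, met15Δ0 and ura3Δ0. The deletion strain, from the haploid deletion collection, carries kanMX4 in place of RPL6A (genotype rpl6a::kanMX4). It is 1 strain, so what the deletion did and what this isolate carries elsewhere in its genome cannot be told apart. All cultures grew in YPD at 30 °C to mid-log phase, and poly(A) RNA was sequenced as directional libraries. Genes of the right arm of chromosome XII (identifiers starting YLR) were kept apart because earlier work on these libraries had shown them to rise as a block, so their rise in this contrast is given as a description, with no test of the block. Ribosome footprints of the same strains (2 libraries of Δrpl6a, 3 of the wild type) and the mRNA of the other 4 deletion strains of the experiment (Δrpl7a, Δrpl9a, Δrpl15b and Δrps27b, 12 libraries) were used for comparison.

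Most yeast ribosomal proteins are encoded by a pair of duplicated genes, and deleting 1 copy lowers the supply of that protein without abolishing it. Cells adjust to poor supply of nutrients through regulators that act on small sets of genes, such as Gcn4 on amino acid biosynthesis, Aft1 on iron uptake, and Msn2 and Msn4 on the general stress response. These names are used here only to label lists of genes.

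The 6 mRNA libraries held 5830742 to 8277031 counts each, and the footprint libraries of these strains held 8510602 to 11611057. Of 5743 listed genes, 5490 passed the filter on low counts. Levels are CPM, the share of a gene in the counts of its library after TMM scaling, differences are log2 fold changes of Δrpl6a over wild type with their standard error (SE) from edgeR's quasi-likelihood fit, and a gene was called at a Benjamini-Hochberg adjusted p below 0.01 and a change of more than 2-fold. By that rule 277 genes were called, 219 higher (3.99% of the genes tested) and 58 lower (1.06%). Within each strain, replicates 1 and 2 resembled each other and replicate 3 stood apart. The chi-square per gene between replicates 1 and 2 was 3.89 in the wild type and 5.0 in Δrpl6a, against 24.4 to 41.7 in the pairs that included replicate 3. Without replicate 3 of both strains, 229 genes were called. The mating type a genes were present, at 183 counts or more in every library for AGA2, the lowest of them, and the mating type alpha pheromone genes had at most 2 counts. SAG1 and STE3, also of mating type alpha, were not absent, at 73 to 110 and 17 to 65 counts. URA3 was at 0 counts and MET17 at 0 or 1 in all 6 libraries, and LEU2 was not among the listed genes. HIS3, which the genotype lists as the allele his3Δ1, had 343 to 934 counts.

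RPL6A was close to absent in the deletion strain. Its level was 1555, 1600 and 1384 CPM in the 3 wild-type libraries and 2.01, 1.64 and 2.70 CPM in the Δrpl6a libraries. The groups were far apart, and the log2 fold change was -9.45 ± 0.24 (SE, n = 3 against 3, edgeR adjusted p = 1.7e-14). Footprints on RPL6A fell from 1712, 2215 and 1930 CPM to 6.95 and 4.83 CPM.

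RPL6B (YLR448W), the paralog that encodes nearly the same protein, lies at chrXII:1028854-1029768 in the block described below. Its mRNA was at 1244, 1403 and 1393 CPM in the wild type and at 2085, 1989 and 3328 CPM in Δrpl6a. All 3 deletion libraries lay above all 3 wild-type libraries, with replicate 3 the highest. The log2 fold change of 0.87 ± 0.24 did not pass the threshold (edgeR adjusted p = 0.016). Footprints on RPL6B were at 1362, 1697 and 1445 CPM in the wild type and at 3166 and 3271 CPM in Δrpl6a. They rose by 1.10 ± 0.09 on the log2 scale (edgeR adjusted p = 1.6e-08), a change close to the median of the genes around it. RPL6B mRNA was higher than in the other 4 deletion strains by 1.44 ± 0.17 (edgeR adjusted p = 6.8e-06).

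Full-length mRNA reads of both copies, of 51 bases, could be told apart within the coding sequences. These are 531 bases each, differ at 47 positions (91.1% identity) and share no run of that length. Their longest shared run is 43 bases, longer than a footprint, so footprints inside shared runs cannot be given to 1 copy. Bases 16 to 75 of both reading frames are shown because they hold 7 of these differences, in capitals, and so let an mRNA read be given to 1 copy. Both are from RefSeq, build R64, 5′ to 3′ on the coding strand.
RPL6A (chrXIII:123683-123742, minus strand): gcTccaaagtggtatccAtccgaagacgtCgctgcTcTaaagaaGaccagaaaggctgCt
RPL6B (chrXII:1029253-1029312, plus strand): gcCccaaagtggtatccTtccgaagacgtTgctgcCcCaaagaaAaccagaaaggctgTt

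The block on chromosome XII began at the ribosomal RNA genes, not at the centromere. These genes (RDN) form a tandem array, of which the reference sequence holds the copies between positions 451575 and 489469. Among 144 tested genes between the centromere and the array, the median log2 fold change was 0.03, and 4 were called higher and 3 lower. Among 267 tested genes beyond the array, of 276 listed, the median was 0.93, with an interquartile range of 0.69 to 1.15. Of these 267 genes, 264 (98.9%) lay above 0, 192 (71.9%) rose at an adjusted p below 0.01, 100 (37.5%) were called higher, and none was called lower. Over all genes tested, 8.03% rose at that adjusted p and 3.99% were called higher, and these shares include the block. The 5078 tested genes outside YLR had a median of -0.01. Over the whole of YLR (412 genes tested) the median was 0.69, with 105 called higher and 3 lower, and the genes beyond the array made up 45.7% of all genes called higher. Copies of DNA were not measured in these samples, so a change in copy number and a change in RNA per copy cannot be told apart.

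The change at the edge was abrupt. The last 10 tested genes before the array had a median of 0.01 and the first 10 beyond it a median of 0.95, with 10 of 10 above 0.5. RNH203 (chrXII:447982-448314), the last gene before the array, which encodes a ribonuclease H2 subunit, changed by -0.01. MAS1 (chrXII:491866-493254), beyond it, encodes a subunit of the mitochondrial processing protease and rose by 1.39 ± 0.14 (edgeR adjusted p = 2e-06). The rise reached the far end of the arm, where the last 10 tested genes had a median of 0.81 and 8 of 10 lay above 0.5. Windows of 20 genes had medians of 0.82 to 1.15 in all 13 windows beyond the array and of -0.08 to 0.13 in the 7 windows before it. The medians of the other 31 chromosome arms lay between -0.16 (YBL) and 0.12 (YIR).

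**Figure D1:**
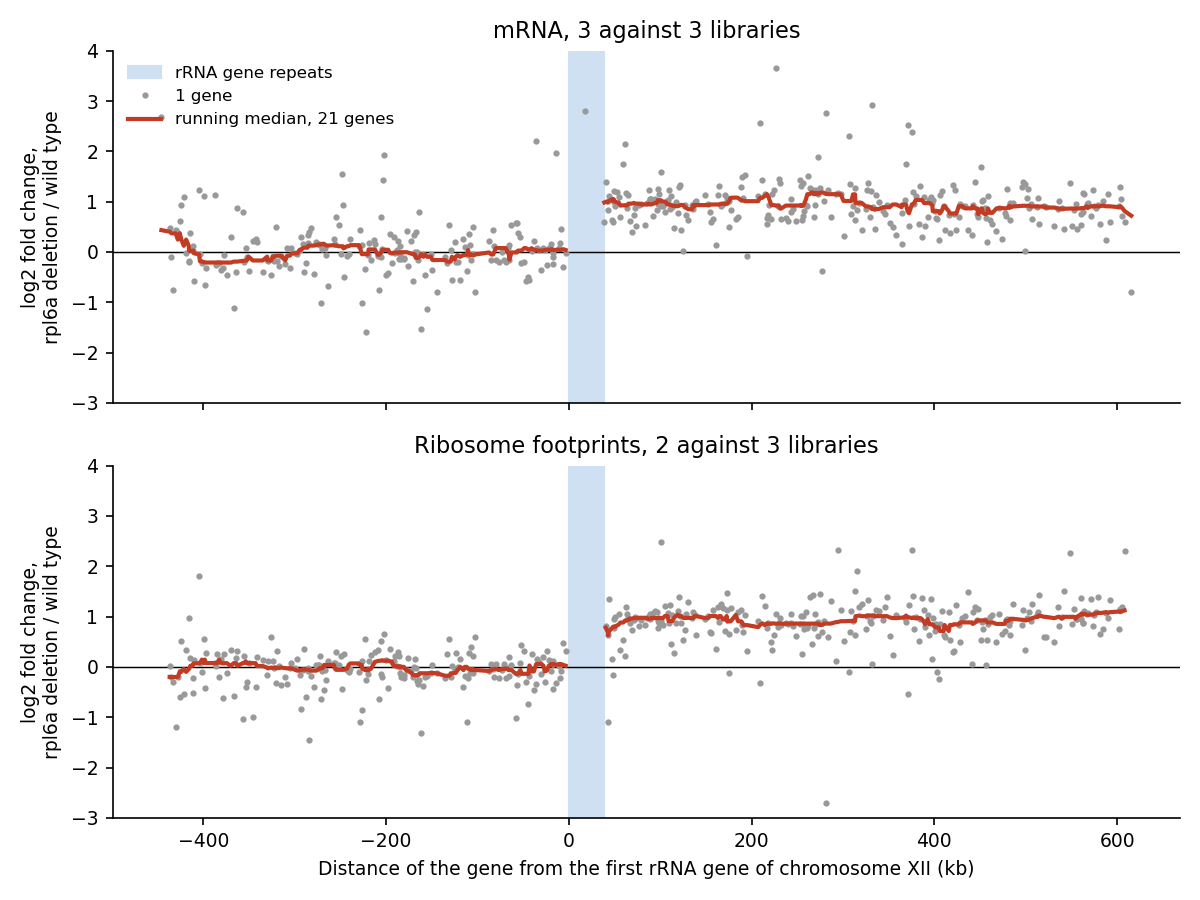
Log2 fold change of every tested gene of chromosome XII (grey points; Δrpl6a over wild type) against its distance in kb from the first rRNA gene, in mRNA (top) and ribosome footprints (bottom). The red line is a running median of 21 genes, and the blue band marks the rRNA gene repeats. The median was 0.03 in mRNA between the centromere and the repeats and 0.93 beyond them.

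Each library showed the block on its own. Over 225 genes beyond the array, the median shift against the wild-type mean was 0.94, 0.92 and 0.94 in the 3 Δrpl6a mRNA libraries, and it lay between -0.05 and 0.01 in the other 15 mRNA libraries of the experiment. The footprint libraries, which were not among those that defined the block, gave shifts of 0.97 and 0.98 in Δrpl6a and of -0.09 to 0.03 in the other 15. In the footprint fit the median of 256 genes beyond the array was 0.94, and 96 were called higher, where 2.17% of all genes tested in footprints were. The median of the difference between footprint and mRNA changes over these genes was 0.02. The median footprint change was thus close to that of the mRNA, and 8 genes beyond the array differed between the assays at an adjusted p below 0.01. The median was again 0.93 against the other 4 deletion strains. That comparison shares the Δrpl6a libraries with the first and uses none of the wild type.

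**Figure D2:**
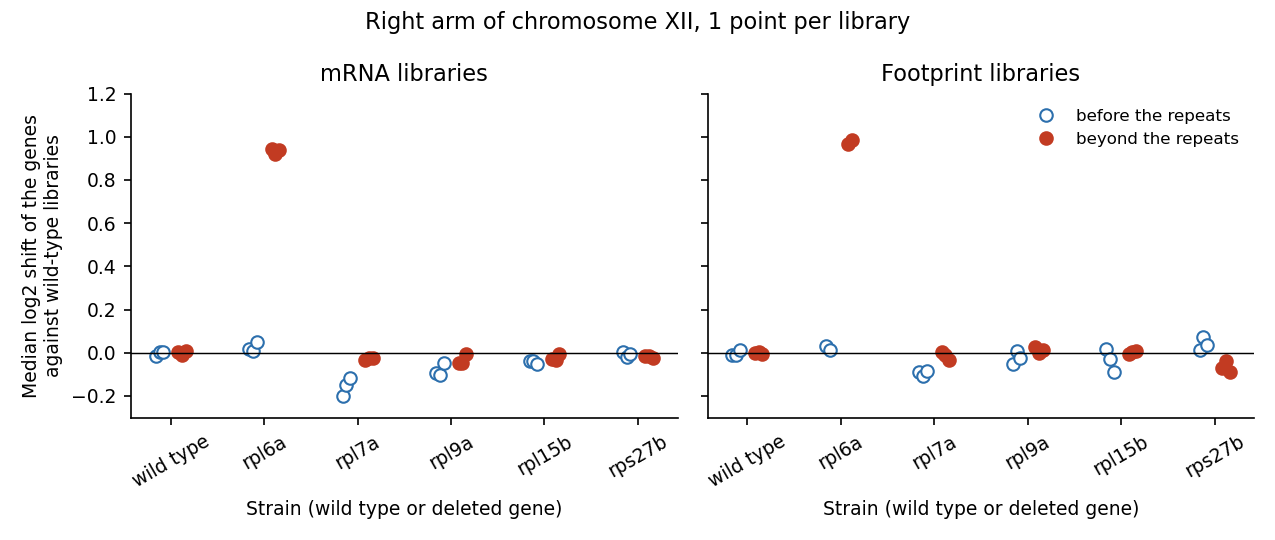
Median log2 shift against the mean of the wild-type libraries for the genes of the right arm of chromosome XII, 1 point per library, in mRNA (left) and footprints (right). Each wild-type library was set against the other wild-type libraries. Open points are genes before the rRNA gene repeats and filled points are genes beyond them. The filled points of the rpl6a strain lie between 0.92 and 0.98, while those of the other strains lie between -0.09 and 0.03.

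Most abundant genes beyond the array lay near the median of the block. The 162 with a mean level of at least 6 on the log2 CPM scale had a median of 0.92 and an interquartile range of 0.68 to 1.08, and 143 lay above 0.5. Outside YLR, 5.44% of 2407 such genes did. The ribosomal protein genes of the segment shared in the rise, with medians of 0.80 over 6 large-subunit and 0.75 over 7 small-subunit genes. RPL31B (1.24 ± 0.16) and RPL26A (1.03 ± 0.14) were called. RPL31B was at 694, 681 and 463 CPM in the wild type and at 1455, 1425 and 1477 CPM in Δrpl6a, with no overlap. The segment also held called genes of ribosome biogenesis (NOP56 and CBF5, core proteins of the box C/D and box H/ACA particles that modify rRNA, and DBP9, a helicase) and of translation initiation (HCR1, a subunit associated with eIF3, and GCD7, a subunit of eIF2B). NOP56 was at 1425, 1482 and 1308 CPM in the wild type and at 2968, 3265 and 2555 CPM in Δrpl6a, a change of 1.06 ± 0.15. The other called list members there were HSP60 and CPR6 (chaperones), ATP14 (ATP synthase), RPN13 (proteasome), CCW14 (cell wall), LEU3 (regulator of leucine synthesis) and ECM22 (regulator of sterol synthesis), with changes of 1.00 to 1.44. Leaving out 1 library ended the call of NOP56 (Δrpl6a replicate 2), CBF5 (Δrpl6a replicate 2 or wild-type replicate 3), RPL26A (replicate 3 of either strain), LEU3 (Δrpl6a replicate 1 or 2 or wild-type replicate 3), CCW14 (Δrpl6a replicate 1 or 2 or wild-type replicate 2) and RPN13 (Δrpl6a replicate 1 or 2 or wild-type replicate 2 or 3).

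In mRNA, a few genes beyond the array departed from the median of the block. HAP1 (-0.08 ± 0.14), the activator of heme-dependent genes, EXG1 (-0.37 ± 0.40), a cell wall glucanase, and YRF1-4 (-0.80 ± 0.70), a telomeric helicase gene with many copies, lay below 0, and none of these changes passed the test. EXG1 footprints rose by 0.69 ± 0.10 (edgeR adjusted p = 4.6e-05), and the difference between the assays did not pass (edgeR adjusted p = 0.13). HAP1 mRNA was at 896, 889 and 1089 CPM in the wild type and at 942, 852 and 927 CPM in Δrpl6a, which overlapped. HAP1 footprints changed by 0.31 ± 0.10 (edgeR adjusted p = 0.036), and the difference between the assays did not pass (edgeR adjusted p = 0.17). The HAP1 coding sequence is 4509 bases long, and genes over 4 kb outside YLR had a median of -0.44 in mRNA. At the other end, 8 genes lay more than 1 above the median of the block. DIC1, the mitochondrial dicarboxylate carrier, was at 44.1, 50.9 and 98.8 CPM in the wild type and at 306, 299 and 403 CPM in Δrpl6a. It rose by 2.38 ± 0.25 (edgeR adjusted p = 4.8e-06) and by 2.32 ± 0.11 in footprints. GSY2, glycogen synthase, rose by 2.55 ± 0.59 in mRNA but stood at -0.31 ± 0.17 in footprints, and that difference passed the test (edgeR adjusted p of the interaction = 0.0082). Its level in Δrpl6a was 468, 557 and 124 CPM against 78.8, 82.4 and 34.6 CPM, lowest in replicate 3 of both strains, and the call was lost when any 1 library but Δrpl6a replicate 3 was left out. TMA10 (2.92), TFS1 (2.15), BOP2 (3.65), CIS1 (2.52) and ATG39 (2.30) were likewise called in mRNA, with footprint changes between -0.54 and 1.06 that did not pass the test. The TFS1 call was lost without wild-type replicate 3. MET17, deleted in both strains, was the eighth and rested on 2 counts.
The other named rises of the arm were ECM19 (1.70), YLR177W (1.74) and YLR345W (1.75).

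Between the centromere and the array the called genes were single ones. TIS11, OSW2, GID11 and YLR030W were higher, and PSR2 (-1.02 ± 0.14), COX12 (-1.01 ± 0.12) and NFG1 (-1.59 ± 0.21) were lower. PSR2, a plasma membrane phosphatase, was at 106, 96.5 and 82.5 CPM in the wild type and at 46.5, 48.3 and 46.3 CPM in Δrpl6a. Besides PSR2, the 4 lowest values among abundant YLR genes were CSF1 (-0.80), REA1 (-0.79), KIN2 (-0.55) and EMP70 (-0.45), all before the array and none called. With the trend of the change on coding length removed, these were -0.14, 0.05, -0.26 and -0.35, so the order and, for REA1, the direction changed. REA1, a giant ATPase of 60S subunit maturation, rose in footprints by 0.60 ± 0.10 (edgeR adjusted p = 0.00023). The PSR2 call was lost without wild-type replicate 1, and that of COX12 without Δrpl6a replicate 1 or 2 or wild-type replicate 2. YLR154C-H, between rRNA gene copies, rose by 2.80 ± 0.59 and lies in repeated sequence, so its counts are uncertain.

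Outside YLR, 114 genes were called higher, 2.24% of 5078, and 55 lower, 1.08%. Without replicate 3 of both strains the counts were 84 and 47. With the replicate number added to the fit as a block, they were 159 and 73. Without Δrpl6a replicate 2, 34 genes were called lower. With no fold minimum, 4.69% of the genes were higher and 3.8% lower at an adjusted p below 0.01. Lists of genes of known function held 41 of the 114 rises and 21 of the 55 falls. The share of all tested genes that these lists hold was not counted, so both numbers are a description only. In footprints, 0.405% of the genes outside YLR were called higher and 0.769% lower.

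Footprints were set beside the mRNA for the same genes. Outside YLR, 2206 of 4922 genes lay above 0 in footprints. Of 50 genes that fell in mRNA and were tested in footprints, 42 had a lower footprint level and 13 of them fell at an adjusted p below 0.01, where 3.58% of all genes outside YLR did. Of 105 genes that rose, 48 had a higher footprint level, 5 rose at that threshold, where 3.28% of all genes did, and 8 fell. The difference between the assays itself passed the test for 45 of the rises and 13 of the falls, and for 189 genes in all outside YLR. Since these genes were chosen by their mRNA change, which enters that difference, the counts are a description. The 5 genes higher in both included ROF1 (2.77 in mRNA and 3.05 in footprints), SNZ1, CIT2 and SRY1. Besides RPL6A, the 12 genes lower in both were WSC4, PTR2, IMD2, CLN1, CWP1, CWP2, MFA2, HCM1, SFG1, SCW11, TSC10 and MSA2. The footprint fit compared 2 libraries with 3, so its changes are less precise for low genes.

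**Figure D3:**
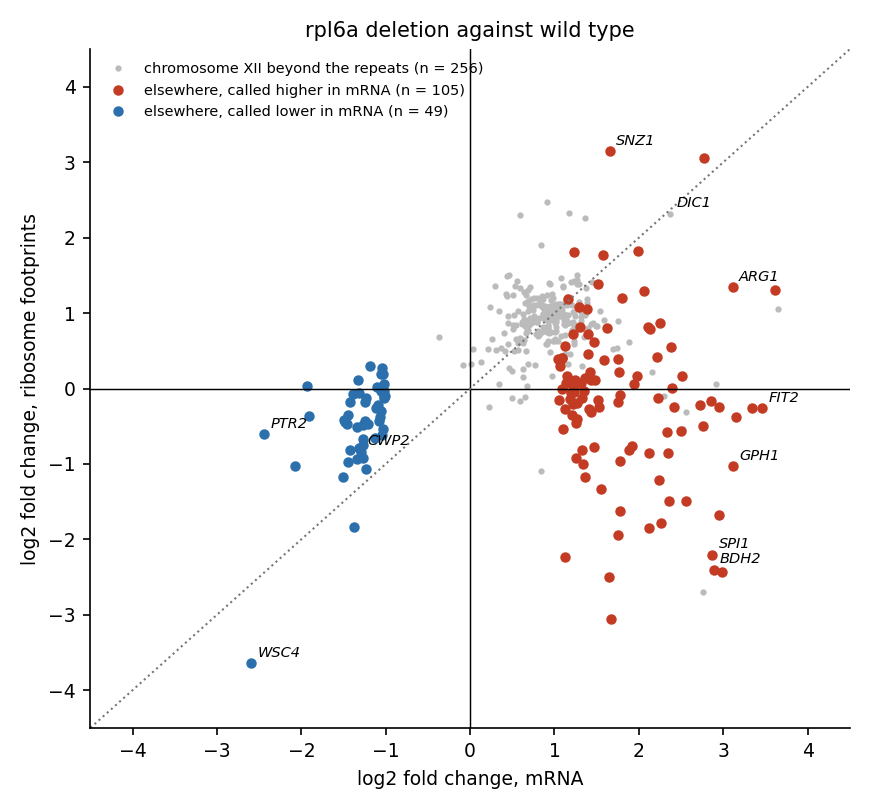
Log2 fold change of footprints against that of mRNA, Δrpl6a over wild type, 1 point per gene. Grey points are chromosome XII genes beyond the repeats, red and blue points are genes elsewhere called higher or lower in mRNA, and the dotted line marks equal change. RPL6A is left out. The grey points gather near 0.93 on both axes, while FIT2 lies at 3.46 in mRNA and -0.26 in footprints.

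Against the other 4 deletion strains, 1.2% of the genes outside YLR were called higher and 2.72% lower, and 5.75% and 9.28% passed with no fold minimum. This comparison shares the Δrpl6a libraries with the first, so its values are set beside those against the wild type and the overlap is not read.

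Among genes outside YLR with a mean of at least 4 on the log2 CPM scale, the 2 largest rises were in iron uptake genes. Of 26 list members outside YLR, 10 were called higher and none lower, with a median of 0.75, and TIS11 on chromosome XII was also called. FIT2, a cell wall mannoprotein that retains siderophore iron, was at 105, 104 and 105 CPM in the wild type and at 1280, 1415 and 767 CPM in Δrpl6a. The log2 fold change was 3.46 ± 0.28 (edgeR adjusted p = 4.0e-07), and the groups were far apart. FIT3 (3.35 ± 0.28) and FIT1 (2.34 ± 0.20), of the same family, rose with it. FIT3 went from 168, 188 and 212 CPM to 2066, 2457 and 1253 CPM. The siderophore transporters ARN2 (2.72), ENB1 (1.62), ARN1 (1.32) and SIT1 (1.26) all rose. ENB1, the enterobactin transporter, was at 112, 122 and 113 CPM in the wild type and at 354, 355 and 358 CPM in Δrpl6a, with no overlap. LSO1 (3.15), FRE5 (2.52), a reductase homolog, and ISU1 (1.07), the iron-sulfur scaffold protein, were called too, ISU1 not without Δrpl6a replicate 3. TIS11 (2.21 ± 0.23), which promotes decay of mRNAs of iron-using proteins, was at 27.1, 28.5 and 24.8 CPM in the wild type and at 134, 142 and 96.4 CPM in Δrpl6a. The high-affinity iron oxidase and permease were not called. FET3 was at 265, 266 and 330 CPM against 329, 345 and 399 CPM (0.32 ± 0.24), and FTR1 changed by 0.01 ± 0.30.

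The footprints gave other values for these genes. None of the 26 was called, and the median was 0.04. Footprints on FIT2 were at 1596, 905 and 725 CPM in the wild type and at 1014 and 787 CPM in Δrpl6a, which overlapped. The wild-type footprint libraries thus held FIT2 at 725 CPM or more, where the wild-type mRNA libraries held it at 105 CPM or less. The difference between the assays passed the test for FIT2 (edgeR adjusted p = 5.1e-05), FIT3 (0.00015), ARN2 (9.3e-05) and FIT1 (0.00039), among others. FIT2 mRNA was higher than in the other 4 deletion strains by 3.28 ± 0.17 and FIT1 by 4.27 ± 0.14, and 16 of the 26 members were higher at an adjusted p below 0.01.

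The site TGCACCC, known to be bound by Aft1, lay within 500 bases before the start codon of all 11 iron list members called higher, on either strand. It was found for 23 of the 30 listed genes and for 130 of 5489 genes searched (2.37%). A match is a description of the sequence only. Sites of the members with the largest rises are shown with 10 bases on either side, the site in capitals, 5′ to 3′ on the strand that carries it (RefSeq R64). The FIT3 site lies between FIT3 and the divergent gene FRE5 and counts for both.
FIT1 (chrIV:1505066-1505092, plus strand): ttcattttttTGCACCCtttcctagaa
FIT2 (chrXV:1059255-1059281, plus strand): tttaaaacaaTGCACCCtaagttcaaa
FIT3 (chrXV:1061223-1061249, plus strand): cccattttttTGCACCCtttcctagaa
ARN2 (chrVIII:10644-10670, plus strand): aactaagaacTGCACCCattttctgat
LSO1 (chrX:448887-448913, minus strand): tcgagaatgtTGCACCCttttttccaa
TIS11 (chrXII:416815-416841, plus strand): gctggcacaaTGCACCCaactgcatgt

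Of the 10 genes of arginine biosynthesis, all lay above 0, 4 were called higher, and the median was 1.03 in mRNA and 0.34 in footprints. ARG1, argininosuccinate synthetase, was at 28.6, 33.7 and 44.6 CPM in the wild type and at 344, 367 and 214 CPM in Δrpl6a. It rose by 3.11 ± 0.33 (edgeR adjusted p = 4.4e-06), with no overlap. ARG3 (2.21), ornithine carbamoyltransferase, and ARG7 (1.39), ornithine acetyltransferase, were also among those called. ARG1 was higher than in the other 4 strains by 1.77 ± 0.21.

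Other amino acid pathways held no call. In mRNA no gene outside YLR was called among 6 histidine, 10 lysine, 9 branched-chain, 13 aromatic, 24 sulfate and methionine, 12 serine and one-carbon and 8 purine genes, with medians from -0.27 (sulfate and methionine) to 0.31 (aromatic). With no fold minimum, 1 histidine, 1 lysine, 2 aromatic and 2 sulfate and methionine genes rose, and 2 sulfate and methionine genes fell. The 9 branched-chain genes had a median of -0.01 in mRNA and 0.84 in footprints, where 3 were called higher. Footprint medians were 0.32 for histidine, 0.20 for lysine and 0.25 for aromatic genes, with none called. At an adjusted p below 0.01, 2 of 6, 2 of 10 and 3 of 13 of these rose and 1 aromatic gene fell. Of all genes outside YLR, 3.28% rose in footprints at that threshold. GCN4 mRNA, which encodes the activator of these pathways, was at 1197, 1350 and 1466 CPM in the wild type and at 1258, 1303 and 1595 CPM in Δrpl6a, so the groups overlapped (0.05 ± 0.16). Its footprints, which mark translation of an mRNA held back by upstream reading frames, were at 38.2, 37.1 and 30.1 CPM in the wild type and at 56.7 and 52.7 CPM in Δrpl6a, with no overlap. That difference of 0.64 ± 0.19 did not pass the threshold (edgeR adjusted p = 0.025).

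The Gcn4 site TGACTCA lay within 500 bases before the start codon of all 4 arginine genes called higher, of 9 of the 10 listed and of 230 of 5489 genes (4.19%). The sites of 3 called genes are shown as above.
ARG1 (chrXV:218856-218882, plus strand): gattttttagTGACTCAtgtcgcattt
ARG3 (chrX:268475-268501, plus strand): ggtcacgtcgTGACTCAtatgctttct
ARG7 (chrXIII:396515-396541, minus strand): acaggtaggaTGACTCActgcgtaatt

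Several stress and glycogen genes rose in mRNA, and some of the same genes fell in footprints. Of 39 environmental stress genes outside YLR, 6 were called higher and none lower, with a median of 0.79. The median shift was 0.93 in Δrpl6a replicates 1 and 2 and 0.35 in replicate 3, and it was 0.13, 0.21 and -0.29 in the wild-type replicates in order. Replicate 3 was thus the lowest in both strains, and within each replicate number the shift was larger in Δrpl6a than in the wild type. The baselines differ, since each wild-type library was set against the other wild-type libraries only. GPH1, glycogen phosphorylase, was at 15.4, 17.3 and 7.98 CPM in the wild type and at 149, 178 and 25.1 CPM in Δrpl6a. Its rise of 3.12 ± 0.68 (edgeR adjusted p = 0.0033) was seen within each replicate number, least in replicate 3, and the call was lost when any 1 library but Δrpl6a replicate 3 was left out. SPI1, a cell wall protein, was at 34.4, 35.7 and 16.5 CPM against 254, 282 and 96.8 CPM (2.87 ± 0.50). YRO2 (2.96), a membrane protein, YGP1 (2.35), a secreted glycoprotein, GLC3 (2.12), the glycogen branching enzyme, and SOL4 (1.94), of the pentose phosphate pathway, were the other members called. YRO2 was the steadiest of them, at 11.6, 11.3 and 7.41 CPM against 87.2, 85.8 and 61.4 CPM. GLC3 and SOL4 lost their calls when any 1 library but Δrpl6a replicate 3 was left out, and YGP1 without Δrpl6a replicate 1 or 2 or wild-type replicate 2 or 3. GLC3 also lost its call with the length trend removed, where its change was 2.22.

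In footprints the same list had a median of -0.55, with 7 of 38 genes called lower. SPI1 footprints were at 5.81, 7.10 and 6.40 CPM in the wild type and at 1.59 and 1.15 CPM in Δrpl6a, a fall of 2.20 on the log2 scale. The list median against the other 4 deletion strains was -0.82, and 13 of 39 members were lower at an adjusted p below 0.01. The direction for these genes thus differed with the assay and with the strain used as reference. The sequence AGGGG, the stress response element, was found before 36 of the 41 listed genes and before 34.3% of all genes.

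Few heat shock genes were called. Of 28 outside YLR, HSP26 (2.56 ± 0.57) and HSP30 (2.11 ± 0.45) were called and the median was 0.29. In footprints the list median was 0.34, with 8 of 28 members higher and 1 lower at an adjusted p below 0.01. Against the other 4 deletion strains the mRNA median was -0.59, with 7 members lower and none higher at that threshold. HSP26, a small heat shock protein, was at 3.61, 2.73 and 4.56 CPM in the wild type and at 24.1, 25.7 and 15.7 CPM in Δrpl6a, but its footprints fell from 78.6, 69.5 and 39.4 CPM to 21.4 and 23.2 CPM. Leaving out any 1 library but Δrpl6a replicate 3 ended the HSP26 call. Of 29 hexose transport and glycolysis genes, HXK1 (2.42), a hexokinase, HXT4 (2.23), a transporter, and TDH1 (1.91), a glyceraldehyde-3-phosphate dehydrogenase, were called. HXT4 was at 53.5 and 51.3 CPM in Δrpl6a replicates 1 and 2 and at 10.5 CPM in replicate 3, against 7.53, 8.54 and 8.40 CPM in the wild type. Its call was lost when only the 2 groups compared were fitted or any 1 library but Δrpl6a replicate 3 was left out. The call of HXK1 was lost without Δrpl6a replicate 2 or wild-type replicate 1, and that of TDH1 without Δrpl6a replicate 1 or 2 or wild-type replicate 1 or 3. Of 28 oxidative stress genes, TSA2 (1.41) and OYE3 (1.80) were higher and CTA1, peroxisomal catalase, was lower (-1.39), though not without Δrpl6a replicate 2.

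**Figure D4:**
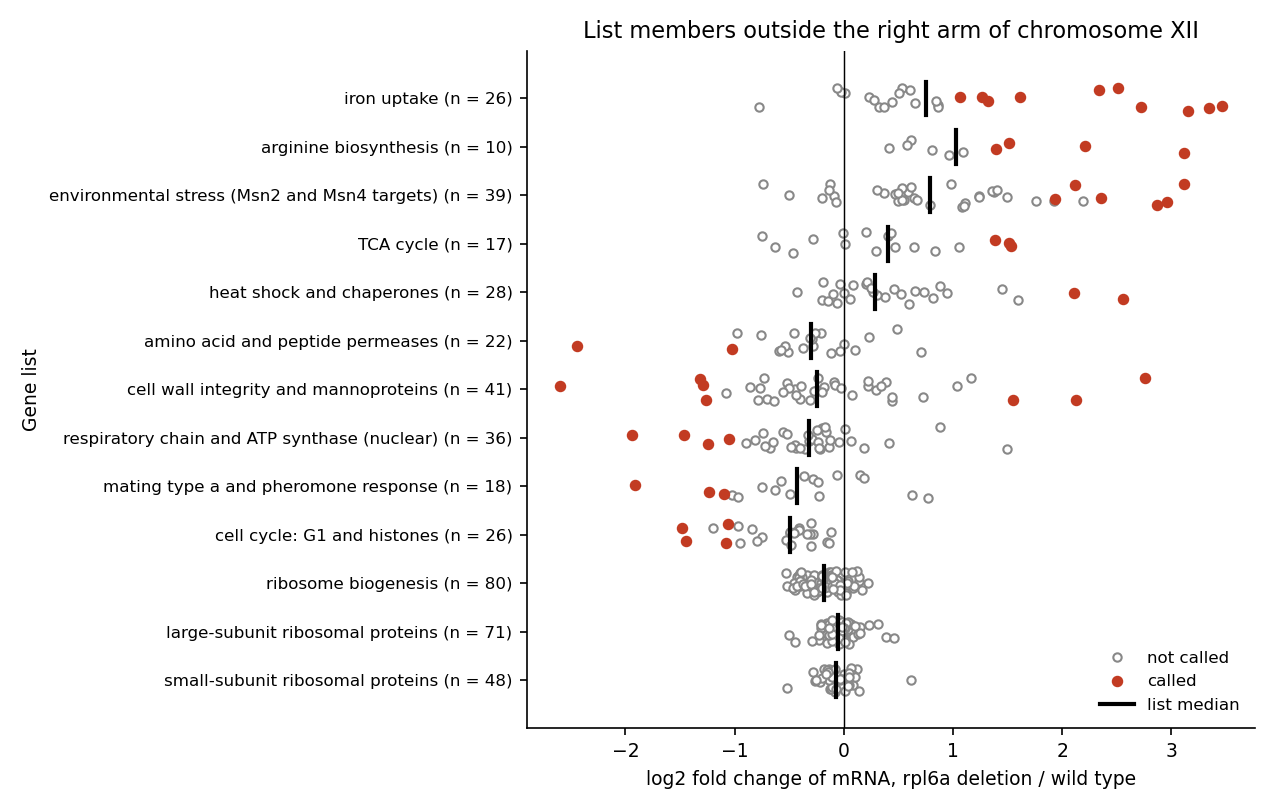
Log2 fold change of mRNA (horizontal axis) for the members of 13 gene lists outside the right arm of chromosome XII, 1 point per gene, with the list median as a black bar. Filled red points were called. Iron uptake and arginine biosynthesis have medians of 0.75 and 1.03 and called members only above 0, while the small-subunit ribosomal proteins have a median of -0.07 and no called member. RPL6A is left out.

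Against the wild type, a few genes of the respiratory chain fell and a few of the TCA cycle rose. Of 36 nuclear genes of the respiratory chain and ATP synthase outside YLR, 4 were called lower and none higher, with a median of -0.32. COX4, a cytochrome oxidase subunit, was at 60.4, 56.6 and 62.2 CPM in the wild type and at 17.8, 18.8 and 28.1 CPM in Δrpl6a (-1.46 ± 0.18, edgeR adjusted p = 2.4e-05). CYC1 (-1.93), cytochrome c, COX5A (-1.24), of cytochrome oxidase, and CYT1 (-1.05), cytochrome c1, were called too, as was COX12 on chromosome XII. The CYT1 call was lost without Δrpl6a replicate 1 or 2 or wild-type replicate 3. CYC1 was at 20.1, 19.3 and 24.9 CPM in the wild type and at 4.28, 2.95 and 9.25 CPM in Δrpl6a, while its footprints overlapped between the strains. In footprints the list median was -0.40, with 1 member called lower. Against the other 4 deletion strains the median was -1.03, and 28 of 36 members were lower at an adjusted p below 0.01. Of 17 TCA cycle genes, IDH1 (1.51) and IDH2 (1.53), which form isocitrate dehydrogenase, and CIT2 (1.39), the peroxisomal citrate synthase, were called higher, CIT2 not without wild-type replicate 1 or 2. The TCA list had a median of 0.41 in mRNA and of 0.04 in footprints, where 5 of 17 members were higher and 1 lower at an adjusted p below 0.01. Against the other 4 deletion strains its median was -0.37, with 6 members lower and none higher. IDH1 was at 82.2, 89.0 and 135 CPM in the wild type and at 260, 273 and 342 CPM in Δrpl6a. Footprints of IDH1 (-0.15) and IDH2 (-0.25) did not change by the test, while those of CIT2 rose by 1.06 ± 0.23 (edgeR adjusted p = 0.0023).

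Genes of low oxygen and of heme were read from lists put together after the values had been seen, so their counts are a description. Of 24 anaerobic genes repressed by Rox1 or related factors, DAN1 (2.76), TIR4 (1.55), HES1 (1.47) and ANB1 (1.31) were called higher. The Rox1 site ATTGTTC lay within 500 bases before the start codon of 1 of these 4 genes, ANB1. It was found for 9 of the 25 listed genes and for 11.8% of all genes searched. DAN1, a cell wall mannoprotein of anaerobic cells, was at 8.94, 7.01 and 6.41 CPM in the wild type and at 54.0, 60.6 and 37.3 CPM in Δrpl6a, and it was higher than in the other 4 strains by 5.49 ± 0.15. Its footprints were at 197, 132 and 106 CPM in the wild type and at 108 and 97.7 CPM in Δrpl6a. The anaerobic list had a median of 0.37 in mRNA and of -0.28 in footprints, where 2 members were called lower. Of 23 genes activated by Hap1 or Hap2-5, 6 were called lower, with a median of -0.74. The 22 tested in footprints had a median of -0.04 there, and none passed an adjusted p below 0.01 by edgeR, while 1 was lower by DESeq2 and 6 were lower and 3 higher at an unadjusted edgeR p below 0.05. The 6 genes called lower in mRNA were the cytochrome genes above, CTA1 and ROX1 (-1.07), the repressor of anaerobic genes. HAP1 mRNA itself did not change by the test (above).

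Other falls were in genes of the cell surface, mating and the cell cycle. Of 41 cell wall genes, WSC4 (-2.60 ± 0.42), a stress sensor, the mannoproteins CWP1 (-1.32) and CWP2 (-1.29) and the agglutinin anchor AGA1 (-1.26) were called lower, and DAN1, TIR4 and YPS6 (2.13), a surface protease, were higher. WSC4 was at 57.4, 56.2 and 26.1 CPM in the wild type and at 9.09, 10.6 and 3.6 CPM in Δrpl6a, and its footprints fell from 23.5, 23.7 and 17.7 CPM to 1.29 and 2.19 CPM. It was lower in both assays. CWP2, the most abundant of them, was at 2559, 2356 and 1935 CPM against 947, 976 and 876 CPM, and its footprints fell by 0.84 ± 0.14. Of 18 mating type a and pheromone genes, FAR1 (-1.91), an inhibitor of G1 cyclins, MFA2 (-1.23), a pheromone precursor, and BAR1 (-1.10), the protease that degrades alpha factor, were lower. The BAR1 call was lost when any 1 library but Δrpl6a replicate 3 was left out, and its footprint change was 0.02 ± 0.11. MFA2 was at 390, 359 and 285 CPM against 146, 141 and 152 CPM, and its footprints fell by 1.06 ± 0.15. STE3, a receptor of the other mating type, was at 2.67 to 3.59 CPM in the wild type and at 7.04 to 8.35 CPM in Δrpl6a, a rise of 1.22 at a low level.

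All 26 G1 and histone genes lay below 0, with a median of -0.49, and 4 were called. CLN1, a G1 cyclin, was at 91.2, 95.0 and 103 CPM in the wild type and at 40.1, 27.7 and 38.0 CPM in Δrpl6a (-1.45 ± 0.20, edgeR adjusted p = 5.7e-05). PCL1 (-1.48), a cyclin of Pho85, and the cell separation genes SCW11 (-1.08) and EGT2 (-1.06) were the others, EGT2 not without Δrpl6a replicate 1 or 2 or wild-type replicate 3. In footprints the list median was -0.44, and 11 of 26 members fell at an adjusted p below 0.01. CLN1 was among them, from 66.3, 60.3 and 77.1 CPM to 34.9 and 34.4 CPM. Against the other 4 deletion strains the median was -0.15, and CLN1 differed by 0.02 ± 0.16.

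Among transporters, PTR2 (-2.44 ± 0.16), the di- and tripeptide permease, and OPT1 (-1.02), an oligopeptide transporter, were lower of 22 permeases, OPT1 not without Δrpl6a replicate 2 or wild-type replicate 3. PTR2 was at 104, 116 and 89.6 CPM in the wild type and at 18.9, 17.2 and 20.8 CPM in Δrpl6a (edgeR adjusted p = 7.7e-08), and its footprints fell by 0.60 ± 0.14, less than its mRNA by the interaction test (edgeR adjusted p = 4.4e-06). ZRT1 (-1.49), the zinc transporter, was lower of 12 zinc genes, a call that no fit without 1 library kept. PHM8 (2.35) and PHO11 (1.99) were higher of 18 phosphate genes, and 88.0% of the 51-base runs of PHO11 are shared with other genes, so its count is uncertain.

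Other large falls outside the lists were IMD2 (-2.08 ± 0.16), an IMP dehydrogenase, MSB2 (-1.45), a mucin of the filamentous growth pathway, LRG1 (-1.34), a GTPase-activating protein, and FAS1 (-1.38), the beta subunit of fatty acid synthase. IMD2 was at 130, 114 and 103 CPM in the wild type and at 30.6, 28.7 and 22.7 CPM in Δrpl6a. Together with FAS1, 6 more genes of fatty acid and phospholipid synthesis were called lower in a list of 20 put together after the values had been seen (ACC1, FAS2, ELO1, CHO2, ITR1 and HNM1). In footprints the 20 had a median of -0.09. None passed an adjusted p below 0.01 there by edgeR, while 1 was lower by DESeq2. FAS1 footprints changed by -0.08 ± 0.08, and the difference between the assays passed the test (edgeR adjusted p = 0.0017). In mRNA, long genes were lower as a class. Outside YLR the median was 0.01 for coding sequences under 0.5 kb and -0.44 for the 167 over 4 kb, while in footprints it was -0.19 and 0.17. The median mRNA shift of these 167 per library was -0.38, -0.51 and -0.39 in Δrpl6a. It was -0.14, -0.11 and 0.25 in the wild type, so wild-type libraries also differed with length, replicate 3 the most. With the trend on length removed, FAS1 lost its call (-0.89), and 4 of these 7 genes kept theirs. EGT2 (-0.81) and OPT1 (-0.87) also lost their calls, and 43 of the 55 falls called outside YLR were kept. Without Δrpl6a replicate 2 the MSB2 call was lost. Other large rises outside the lists were BDH2 (2.89), a butanediol dehydrogenase homolog, PBI1 (2.85) and TPO2 (2.99), a polyamine transporter of which 40.9% of the 51-base runs are shared with TPO3. The TPO2 call was lost with DESeq2 and without wild-type replicate 3.

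**Figure D5:**
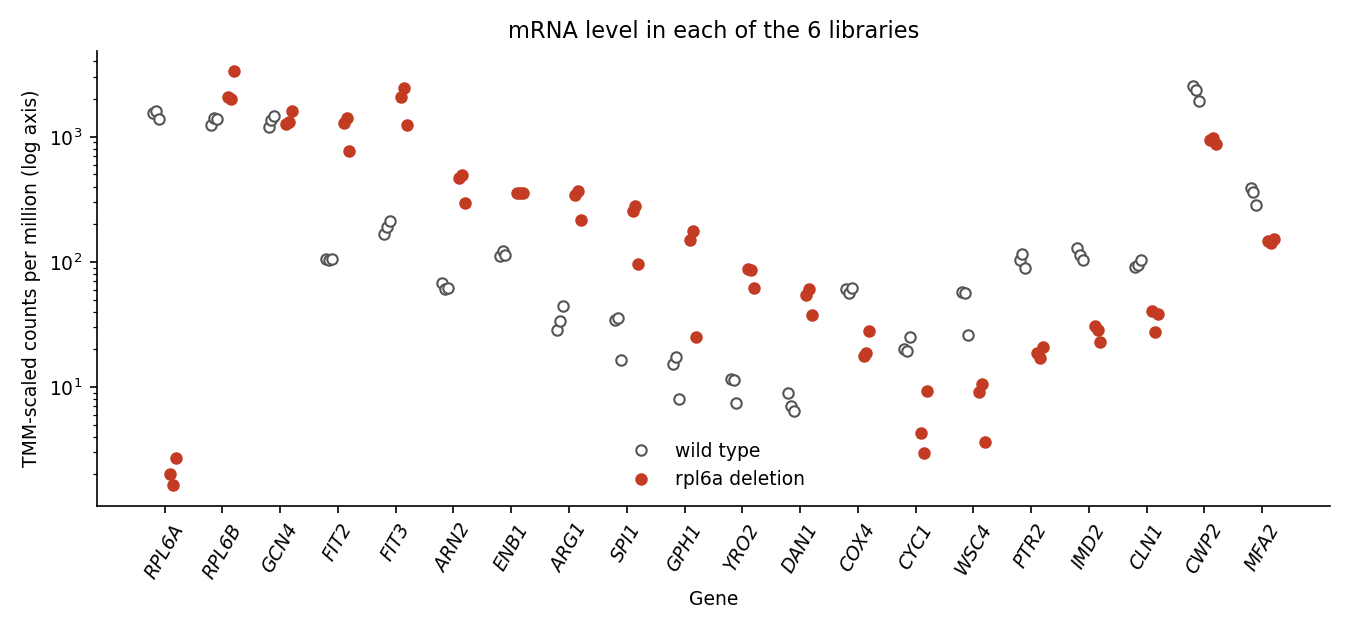
Level in CPM (TMM-scaled, log axis) of 20 named genes in each of the 6 mRNA libraries, open points for the wild type and filled points for Δrpl6a, replicates 1 to 3 from left to right. GCN4 overlaps between the strains. FIT2 lies at 104 to 105 in the wild type and at 767 to 1415 in Δrpl6a, and GPH1 in Δrpl6a replicate 3 lies at 25.1, well under replicates 1 and 2.

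Few genes of the translation machinery outside the block were called in mRNA. RPL6A aside, 71 large-subunit and 48 small-subunit genes had medians of -0.05 and -0.07, and none was called. The medians per library ranged from -0.26 (replicate 2) to 0.15 (replicate 3) for the large subunit and from -0.27 to 0.19 for the small subunit, so the direction differed between replicates. No gene was called among 80 of ribosome biogenesis (median -0.18), 26 initiation factors (-0.07), 18 tRNA synthetases (-0.03) or 22 of RNA polymerase I (-0.07). ANB1, an eIF5A gene, was the 1 call among 12 elongation and termination factors (-0.08). The genes deleted in the other strains and their paralogs, 7 outside YLR, had a median of -0.05 and no call. In footprints 4 of 18 tRNA synthetases rose and none fell at an adjusted p below 0.01 (median 0.21), where 3.28% of all genes outside YLR rose. Footprint medians of the large and small subunit were 0.05 and 0.04. Against the other 4 deletion strains their mRNA medians were 0.29 and 0.38. There 7 large-subunit and 9 small-subunit genes were higher at that threshold, where 5.75% of all genes outside YLR were, and RPL6A was lower.

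The remaining lists gave few calls. Of 15 vitamin B6 and thiamine genes, SNZ1 (1.66 ± 0.20), of vitamin B6 synthesis, and SNO1 (3.62), its partner, were higher, and footprints on SNZ1 rose by 3.15 ± 0.67. SNZ1 was at 10.0, 8.20 and 9.69 CPM in the wild type and at 28.3, 27.8 and 32.1 CPM in Δrpl6a. SNO2 was called lower and SNO3 higher, but their coding sequences differ at 2 of 669 bases. SNO2 had 0 counts in the 3 Δrpl6a libraries and 35 in the wild type, at least 13.2-fold lower against a floor of 3 counts over the group. Summed over both genes, the counts were 20, 13 and 19 in the wild type and 26, 14 and 21 in Δrpl6a, so the pair together overlapped. HES1, an oxysterol-binding protein, was the 1 call among 23 ergosterol genes (median -0.13). No gene outside YLR was called among 35 of the proteasome (0.04), 6 galactose genes (0.10) and 2 mitochondrially encoded genes (-1.34), the latter covered poorly by poly(A) selection.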

How the data were processed

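mRNA of 6 strains (18 libraries) and ribosome footprints of the same strains (17 libraries) had been measured. The deposited values are raw counts of reads per gene. According to the methods, the authors trimmed and filtered reads (FASTX-toolkit), mapped them to yeast transcripts (segemehl) and counted the uniquely mapped ones per transcript, in footprints those within coding sequences only. Whether strand was used in counting is not stated, so overlapping antisense genes are uncertain. Counting only unique reads lowers genes with near-identical copies. The submitters' processing notes list the build sacCer3 and DESeq2. Deposited tables of the authors' own fold changes and p-values, and the counts of the Gcn4 strains, were not used here.

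Counts were fitted with edgeR 4.0.16 in R 4.3.3 (filterByExpr, TMM scaling, glmQLFit and glmQLFTest, group as the only term, Benjamini-Hochberg adjustment over all genes tested) on all 18 mRNA or 17 footprint libraries. The thresholds of 0.01 and 2-fold follow the methods. Differences between assays came from 1 fit of all 35 libraries, added after the values had been seen. The fit was tested on simulated counts. Library shifts are medians of log2(CPM + 0.5) against the mean of the wild-type libraries, a wild-type library being set against the other wild-type libraries. Those of chromosome XII genes cover genes with a wild-type mean of at least 4 on the log2 CPM scale. From them the median shift of the genes outside YLR was subtracted. Shifts of gene lists and of length classes have no level minimum and no such subtraction. Gene positions, names and sequences are from RefSeq R64, which matched 5489 of the 5490 genes tested. The members of the comparison, the 37 gene lists and the 3 later lists were chosen with earlier results of these data known. Named outside YLR were the 12 largest rises and 12 largest falls among called genes without overlap and averaging 4 or more in log2 CPM, in YLR the 8 largest rises, every fall and the 5 lowest values at a log2 CPM of at least 6, called list members, RPL6A, RPL6B, GCN4 and genotype markers. Genes named beyond these were chosen after their values were seen. The values of 1 called list member are not reported here.

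The replicates were biological per the methods. Deviations of the mRNA libraries from their group means correlated by 0.29, 0.34 and 0.47 between libraries of the same replicate number. Correlations between different numbers were not computed, so whether the numbers pair the samples was not tested. The main fit used no pairing. For the footprints the correlations within replicate numbers were 0.11 and -0.02. Alternatives were DESeq2 1.42.0, other scalings, no count filter, only the groups compared, the replicate block, no fold minimum and each library left out, and, added after the data were seen, a fold minimum of 1.5, a correction for coding length and leaving out replicate 3 of both strains.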

Additional observations from a re-analysis of the deposited data

Results flagged for a closer look

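In 5 of the 101 named genes the mRNA and the footprints moved in opposite directions, each past an adjusted p of 0.01, and the difference between the assays itself passed in the fit of 35 libraries (edgeR adjusted p of 1.3e-05 to 0.0015). Across all genes, 203 of 5477 passed that test. The footprint change minus the mRNA change was -5.29 ± 0.70 (log2, SE) for BDH2, a butanediol dehydrogenase homolog. It was -5.07 ± 0.79 for SPI1 and -3.85 ± 0.62 for YGP1, both of the cell surface or secreted. It was -4.04 ± 0.71 for HSP26, a small heat shock protein, and -3.97 ± 0.77 for GLC3, the glycogen branching enzyme. BDH2 mRNA was at 16.5, 20 and 10.7 CPM in the wild type and at 128, 169 and 50.9 CPM in Δrpl6a, while its footprints were at 38.9, 33.3 and 19.3 CPM and at 5.86 and 5.64 CPM. Replicate 3 gave the lowest mRNA level of BDH2 in both strains. None of the 5 mRNAs differed from the other 4 deletion strains at an adjusted p below 0.01. The calls of HSP26, GLC3 and YGP1 in mRNA were lost when single libraries were left out.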

How the results depend on the processing

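With no fold minimum 639 genes were called (203 YLR genes higher, and 238 higher and 193 lower outside YLR), 545 in footprints and 1012 against the other 4 strains, and with a minimum of 1.5 these were 544, 194, 200, 146, 367 and 677. Leaving out 1 library at a time gave 208 to 310 calls, 84 to 107 YLR genes higher, 79 to 127 higher and 34 to 72 lower outside YLR, a YLR median of 0.62 to 0.72, an RPL6B change of 0.59 to 1.01, 127 to 176 footprint calls, a footprint YLR median of 0.65 to 0.71 and 274 to 360 calls against the other strains. The lowest count outside YLR, 34, was without Δrpl6a replicate 2. The YLR median was 0.78 with the length trend removed. In footprints it was 0.68 and became 0.72 with that trend removed, 0.69 with DESeq2, median-of-ratios scaling or only the groups compared, 0.70 with the replicate block and 0.71 with scaling without chromosome XII. With the replicate block, 346 genes were called in mRNA, with 159 higher and 73 lower outside YLR, and the RPL6B change was 0.83. The block changed no call of a named gene. Of 93 named genes that were called, 85 kept the call under every setting that used all libraries, 64 without each library in turn and 63 under both, none changed sign, and 16 lost the call without replicate 3 of both strains. The cause of these changes was not tested. Genes of a few counts per library, such as SNO2 and CTA1, limit the precision.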
